A study of Chlamydomonas reinhardtii with 9 samples.

Results

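The comparison described here is that of a cehc1-1 mutant with the wild type of the unicellular green alga Chlamydomonas reinhardtii, across all gene families. It used 6 of the 9 RNA-seq libraries of the study, 3 of mutant strain B6-F (stock CC-4509) and 3 of wild-type strain B6 (stock CC-4507), chosen by their strain labels. The labels give triplicate cultures of each strain and no further batch. All grew aerobically in TAP, an acetate medium, in rotated flasks on a cycle of 14 h light and 10 h dark, and were sampled 6 h into the light. The lesion in cehc1-1 is not described in the labels. Both groups are single strains, so other differences between the 2 strains cannot be told apart from an effect of the mutation. Expression was deposited by the authors as FPKM, that is fragments scaled to transcript length and library size, for 17609 gene models. Of these, 11397 averaged 1 FPKM or more across the 6 libraries and entered the test, and 3552 of those carry a gene symbol. The other 6212 fell below this minimum, 1492 of them listed at 0 in every one of the 6 libraries.

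CEHC1 is described by the study as a gene that controls the level of CRR1, the transcription factor through which this alga responds to copper deficiency. In that response plastocyanin, a copper protein of the photosynthetic electron chain, is replaced by the heme protein cytochrome c6, and alternative enzymes of tetrapyrrole synthesis take over. Some of the same genes are known to respond to low oxygen. C. reinhardtii lives by photosynthesis, by uptake of acetate, or by both. It concentrates inorganic carbon around Rubisco when CO2 is scarce, swims with a pair of cilia, and is enclosed by a wall of hydroxyproline-rich glycoproteins. Under light and dark cycles its cell division is timed towards the dark phase.

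Levels are given as FPKM, and differences are mutant minus wild type on the log2(FPKM + 1) scale, which understates the change of genes with low FPKM. P-values were from limma, adjusted over all tested genes. A gene was called, and is said to have risen or fallen in the mutant, where the adjusted p was under 0.05 and the difference was at least 1 in size. The background of such calls was 9.58% of the tested genes, 1092 in all, with 549 higher (4.82%) and 543 lower (4.76%) in the mutant. With no minimum difference 66.6% of tested genes had an adjusted p under 0.05, so this weaker criterion separates few families from the rest. The mutant and wild-type libraries did not overlap for 71.7% of tested genes and for 1085 of the 1092 called genes. CEHC1 itself (Cre01.g005900_4532) had 17.4, 18.0 and 16.2 FPKM in the mutant, against 9.10, 7.07 and 9.77 in the wild type. Its difference was 0.93 (SE 0.10, adjusted p 3.3e-05), just under the limit for a call as deposited. It passed that limit with median ratios (1.05), quantile normalization (1.18) and equal totals (1.63), rescalings described below for all genes, and without wild-type replicate 3 (1.01).

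The sum of FPKM was lower in the mutant libraries, 592929 to 645234, than in the wild-type libraries, 970073 to 1108532, and this affects how each family's change reads. Over all tested genes the median difference was -0.12 on the deposited scale, -0.01 after rescaling by median ratios, -0.05 after quantile normalization and 0.48 after rescaling each library to the same total. A family's median is therefore given beside these all-gene medians. The differences also followed the level and the length of genes. Genes of 1 to 3 FPKM had a median difference of 0.19, and genes of 1000 FPKM or more one of -0.75, with 49 of those 162 genes lower and none higher. Among 5 classes of equal size by span on the chromosome, the longest had a median of 0.43, with 302 higher and 17 lower. The shortest had -0.46, with 35 higher and 222 lower. Centring each library within these classes was therefore used as a further alternative. What part library preparation or RNA quality has in this dependence on span was not tested. Libraries correlated at r of 0.992 to 0.995 within a strain and at 0.943 to 0.952 between mutant and wild type, across genes on the log2 scale.

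**Figure D1:**
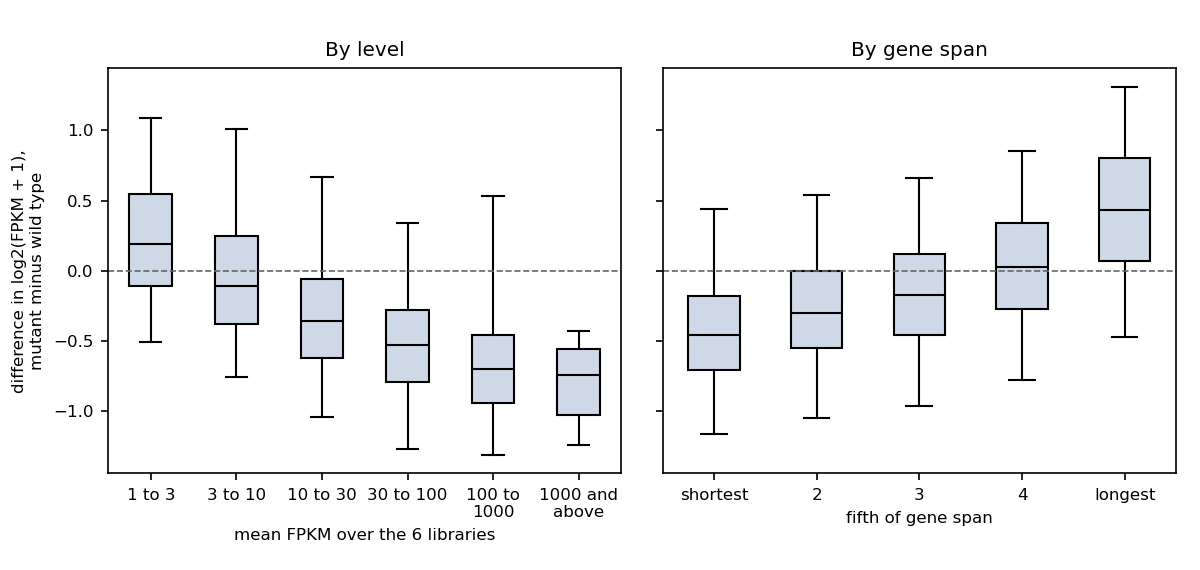
Differences in log2(FPKM + 1), mutant minus wild type, of tested genes by mean FPKM over the 6 libraries (left) and by class of gene span (right). Boxes show quartiles and the median, whiskers the central 90% of genes. Medians run from 0.19 to -0.75 with rising level and from -0.46 to 0.43 with rising span.

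Nuclear genes of the photosystems and of their light-harvesting antennae were lower in the mutant as a block. All 9 LHCA genes, which encode the antenna of photosystem I, fell, as did 10 of the 12 LHCBM and LHCB genes of the photosystem II antenna. All 10 tested genes of the photosystem I core and all 8 of the photosystem II core fell as well. The median differences of these 4 groups were -1.20, -1.07, -1.21 and -1.06. They stayed below the all-gene median under every scaling tried, but the size did not. With equal totals they lay 0.79 to 0.94 below it and no member was called, and with quantile normalization they lay 0.07 to 0.24 below it and again none was called. Centring by gene span left 1 LHCA gene and 1 gene of the photosystem II antenna called and no core gene; all 10 photosystem I core genes are in the shortest-span class. Without mutant replicate 2 the calls were 6 of 12 in the photosystem II antenna and 5 of 8 in its core. Most members belong to the most abundant genes, whose median was -0.75 on the deposited scale.

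LHCA4 had 1930.1, 1902 and 2234 FPKM in the mutant, against 5221, 4534 and 5410.5 in the wild type (difference -1.32, SE 0.10, adjusted p 4.0e-06). LHCBM4 had 4075, 4161 and 4600.0 FPKM in the mutant, against 10219.5, 8649.9 and 10364 in the wild type (difference -1.18, SE 0.10). The groups were far apart in both genes, while the libraries within a strain differed little. LHCBM1, the most abundant antenna gene, had 24381, 24009.7 and 26451 FPKM in the mutant and 51943, 45384 and 54702 in the wild type. Its difference of -1.02 lay close to the limit for a call, which was lost when any of mutant replicate 2, wild-type replicate 1 or wild-type replicate 3 was left out, with a smallest size of -0.96. LHCBM9 was by far the least abundant of those named here, averaging 33.6 ± 4.12 FPKM in the mutant and 83.3 ± 22.1 in the wild type. In the photosystem I core PSAE1, a stromal subunit at the ferredoxin side, averaged 3520.1 ± 217 FPKM in the mutant and 8805 ± 719.7 in the wild type (SD, n = 3 each; difference -1.32). PSAG1 averaged 5150.1 ± 439 FPKM in the mutant and 12184 ± 861 in the wild type. In photosystem II the abundant PSBR1 averaged 10624 ± 393 FPKM in the mutant and 22736 ± 606 in the wild type (difference -1.10), and its difference was 0.03 after quantile normalization. PSBW1 averaged 3319.8 ± 208 FPKM in the mutant and 7715 ± 514 in the wild type (difference -1.22).

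A share of the library total is not changed by a single factor per library, though quantile normalization and centring by span would change it. The 39 photosystem and antenna genes took 23.8%, 24.1% and 24.9% of all FPKM in the mutant libraries and 31.8%, 30.8% and 31.4% in the wild-type libraries. The 2 groups did not overlap in this share. The same 39 genes made up 41.6% of the difference in total FPKM between the strains. Downstream of photosystem II, 4 of 8 genes of the cytochrome b6f complex and chloroplast ATP synthase fell, led by PETN1 with 1015, 997 and 1114 FPKM in the mutant and 2439, 2240.1 and 2634 in the wild type (difference -1.22, SE 0.10). PETC1, the Rieske iron-sulfur protein, fell by 1.06. Median ratios left 1 of the 4 calls, and quantile normalization, equal totals and centring by span left none. FDX1, the main photosynthetic ferredoxin, averaged 4987 ± 383 FPKM in the mutant and 11124 ± 617 in the wild type (difference -1.16). FDX3 and FDX4 fell by 1.49 and 1.35, while FDX9 rose by 1.16, a call that was lost without wild-type replicate 3 (0.96). FDX5, which belongs to the copper-deficiency list, also rose. It averaged 1756 ± 299 FPKM in the mutant and 7.57 ± 1.02 in the wild type (difference 7.67). Of the 9 tested ferredoxins outside that list 4 fell and 1 rose as deposited. The count lower was 3 with median ratios, 2 with quantile normalization, 1 with centring by span and 0 with equal totals. FDX1 was at -0.15 with quantile normalization, -0.40 with equal totals and -0.71 with centring by span. Of the 9 genes 8 are in the shortest-span class.

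**Figure D2:**
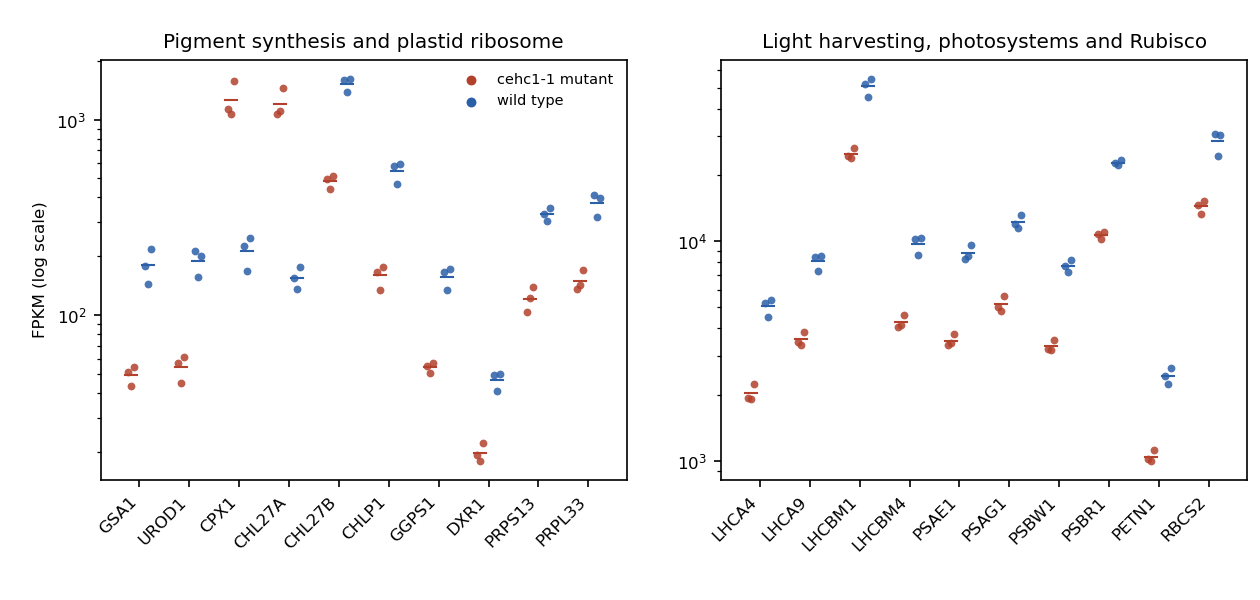
FPKM on a log axis of 20 genes of pigment synthesis, plastid ribosomes, antennae, photosystems and Rubisco in each library, with cehc1-1 mutant points left of wild-type points and bars at the mean of 3. CPX1 and CHL27A are higher in the mutant and the other 18 genes are lower, RBCS2 and LHCBM1 by a difference of about 1.

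Enzymes that make chlorophyll and heme were lower as well. Of 26 tested genes 16 fell, none rose, and the median was -1.19. This count leaves out CPX1 and CHL27A, which belong to the copper list. Tested genes of 30 to 100 FPKM in general had a median difference of -0.53. GSA1, the aminotransferase that forms aminolevulinate, had 51.3, 43.3 and 54.1 FPKM in the mutant, against 179, 145 and 219 in the wild type (difference -1.84, SE 0.16, adjusted p 7.0e-06). UROD1, a uroporphyrinogen decarboxylase, had 57.3, 44.8 and 61.3 FPKM in the mutant, against 213, 157 and 200.4 in the wild type (difference -1.78). No mutant library of either gene came near a wild-type one. CHLP1, which makes the phytol tail of chlorophyll, averaged 159.7 ± 21.6 FPKM in the mutant and 546 ± 69.6 in the wild type (difference -1.77). These 3 genes kept their calls with equal totals, at -1.09, -1.04 and -1.01. The family counted 14 lower genes with median ratios, 13 with centring by span, 4 with quantile normalization and 3 with equal totals, where 2 others were called higher.

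CPX1 and CHL27A, 2 genes of the copper-deficiency response in the same pathway, rose. CHL27A and CHL27B encode alternative forms of a subunit of the cyclase that forms the isocyclic ring of chlorophyll. CHL27B had 498, 442 and 516 FPKM in the mutant, against 1598, 1376 and 1610.4 in the wild type (difference -1.65, SE 0.10, adjusted p 8.2e-07). CHL27A averaged 1208 ± 214 FPKM in the mutant and 156 ± 19.8 in the wild type, so the more abundant form was CHL27A in the mutant and CHL27B in the wild type. CPX1, a coproporphyrinogen oxidase acting between UROD1 and the cyclase, averaged 1257 ± 275 FPKM in the mutant and 214 ± 40.4 in the wild type. Both rose under each of the scalings.

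Isoprenoid and carotenoid synthesis, which shares precursors with the chlorophyll tail, had 7 of 21 genes lower and none higher, with a median of -0.85. The count was 5 with median ratios or centring by span, 1 with quantile normalization and 0 with equal totals, where the median was -0.10. GGPS1, which makes geranylgeranyl diphosphate, had 55.0, 50.5 and 56.7 FPKM in the mutant and 167, 134 and 172 in the wild type (difference -1.52, SE 0.11). CMK1 and DXR1, early enzymes of the plastid isoprenoid pathway, fell by 1.25 and 1.20, and ZDS1, a desaturase of carotenoid synthesis, by 1.15. DXS1, at the entry to the pathway and the most abundant of the family, had a difference of -0.85 and was not called. The Calvin cycle moved less. Of its 17 genes 2 fell, RPE1 (-1.24) and RPI1 (-1.01), both of the regenerative phase, and the median was -0.78. The count was 5 without mutant replicate 3 or wild-type replicate 2, 1 with median ratios and 0 with quantile normalization, equal totals or centring by span. The call of RPI1 was lost without mutant replicate 2 (-0.98) or wild-type replicate 1 (-0.96). RBCS2, the abundant small subunit of Rubisco, averaged 14396 ± 1004 FPKM in the mutant and 28476 ± 3504 in the wild type (difference -0.98), just under the limit for a call.

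Ribosomal protein genes were examined for all 3 compartments. Of 37 nuclear genes for plastid ribosomal proteins 29 fell and none rose, with a median of -1.10. Of 72 genes for mitochondrial ribosomal proteins 4 fell, with a median of -0.55, and of 73 genes for cytosolic ones none was called, with a median of -0.57. No test of the difference between these families was made. PRPS13 of the plastid small subunit had 104, 122 and 139 FPKM in the mutant, against 331, 302 and 354 in the wild type (difference -1.44, SE 0.13). PRPL33 of the large subunit averaged 149 ± 18.3 FPKM in the mutant and 375 ± 51.0 in the wild type (difference -1.32). The plastid family stayed below the all-gene median under each scaling, by 0.50 to 0.98, but no member was called lower with quantile normalization, equal totals or centring by span, and 29 of the 37 genes are in the shortest-span class. The cytosolic ribosomal genes held 21.6 ± 0.450% of all FPKM in the mutant and 19.4 ± 0.500% in the wild type (SD, n = 3 each), and their median lay 0.44 below that of all genes as deposited but 0.19 above it after quantile normalization.

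Assembly and protein handling in the plastid followed in part. Of 74 genes for plastid proteases, protein import and complex assembly 10 fell and 1 rose. Quantile normalization left 3 lower, and equal totals gave none lower and 4 higher. ALB3A, an insertase for light-harvesting proteins, averaged 15.9 ± 1.91 FPKM in the mutant and 43.7 ± 5.29 in the wild type (difference -1.40). CLPS2, an adaptor-type gene of the Clp protease, averaged 9.56 ± 0.752 FPKM in the mutant and 29.9 ± 2.26 in the wild type (difference -1.55). CLPD1, a Clp ATPase, moved the other way, with 16.8, 16.3 and 16.5 FPKM in the mutant and 4.89, 5.36 and 5.66 in the wild type (difference 1.48, SE 0.08). Among 189 genes of the CGL and CPLD series, defined by their conservation in green plants, 18 fell and 2 rose, with a median of -0.42. Quantile normalization gave 2 lower and 2 higher, centring by span 4 lower and 2 higher, and equal totals none lower and 10 higher, with a median of 0.25. CPLD33 and CGL24 fell by 1.35 and 1.27, and CGL106 and CPLD53 rose by 1.47 and 1.39.

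**Figure D3:**
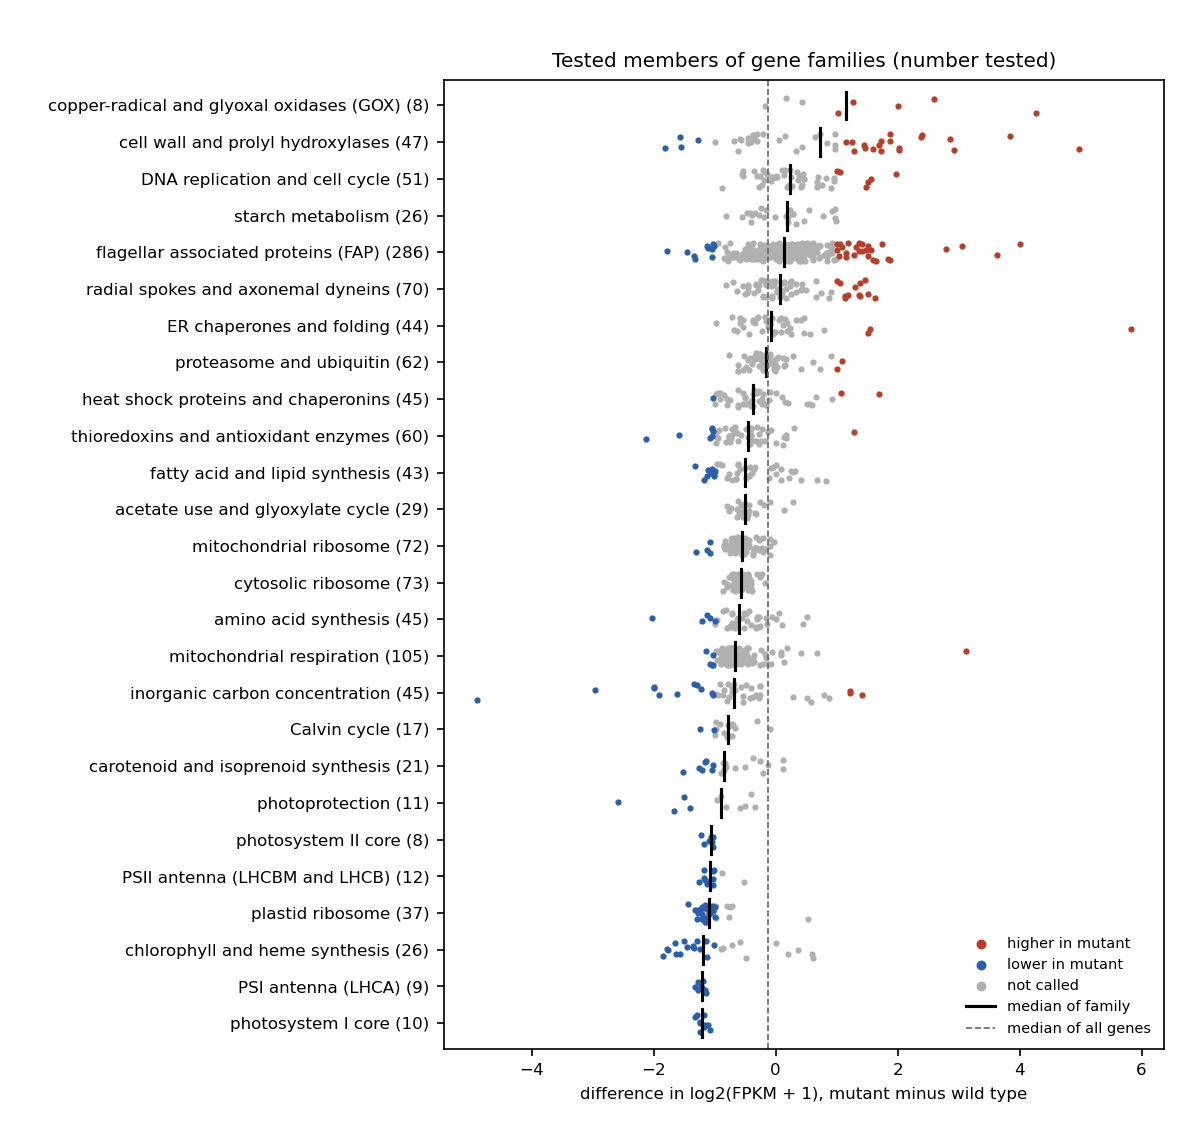
Difference in log2(FPKM + 1), mutant minus wild type, for the tested members of 26 gene families, 1 point per gene, with red for genes called higher in the mutant, blue for genes called lower and grey for genes not called. Black bars mark each family's median and the dashed line the median of all tested genes (-0.12); oxidases of the GOX family and cell wall genes lie to the right, photosystem and chlorophyll genes to the left.

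Genes of the carbon-concentrating mechanism included LCI1, which had the deepest decrease of the genes named here. Of 45 tested genes of this group 11 fell and 3 rose, with a median of -0.69. CAH1, the periplasmic carbonic anhydrase, had 103, 124 and 141 FPKM in the mutant, against 1247, 945 and 724 in the wild type (difference -2.96, SE 0.22, adjusted p 3.6e-06). BST1, a bestrophin-like protein of the thylakoid, had 5.76, 9.80 and 7.77 FPKM in the mutant and 47.3, 37.2 and 21.1 in the wild type, with differences of -1.75 to -2.32 as single libraries were left out. LCIC1, which forms a complex with LCIB around the pyrenoid, had 105, 156 and 121 FPKM in the mutant and 648, 500.1 and 396 in the wild type, with differences of -1.82 to -2.17 as single libraries were left out. In all 3 genes wild-type library 3 was the lowest of its strain, and still above every mutant library. NAR1B, a chloroplast envelope transporter, repeated this, with 2.92, 5.06 and 2.89 FPKM in the mutant and 26.4, 18.6 and 8.13 in the wild type (difference -1.91, SE 0.38, adjusted p 0.0012). LCI1, a plasma membrane protein of inorganic carbon uptake, had the deepest decrease, at -4.90, and ranged from -4.53 to -5.57 as single libraries were left out. Wild-type library 3 was the lowest of its strain for 25 of the 45 genes (55.6%), and for 32.2% of all tested genes.

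Not all members moved together. CAH7 and CAH8, 2 further carbonic anhydrases, and LCI35 were called higher, with differences of 1.22, 1.22 and 1.42. They are named here after their values were seen. LCI3, the most abundant member, had a difference of -0.54, which was 0.40 with quantile normalization. With equal totals 5 members of the group were called lower and 7 higher, while the median stayed 0.42 below that of all genes. RHP1, a gas channel of the Rh family, lay outside the group and had 26.2, 26.1 and 26.7 FPKM in the mutant against 122, 118 and 136 in the wild type (difference -2.20, SE 0.07, adjusted p 6.6e-09).

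Of 11 tested photoprotection genes 4 fell and none rose. LHCSR1, a stress-related light-harvesting protein that dissipates excess energy, had 9.37, 11.6 and 10.4 FPKM in the mutant, against 66.1, 73.4 and 64.1 in the wild type (difference -2.59, SE 0.12, adjusted p 1.1e-07). Of the early light-induced proteins ELIP6, ELIP5 and ELIP8 fell by 1.67, 1.50 and 1.41. The other 7 were not called, and 5 more were below the minimum level. With equal totals LHCSR1 remained the only member called lower, at -1.87.

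**Figure D4:**
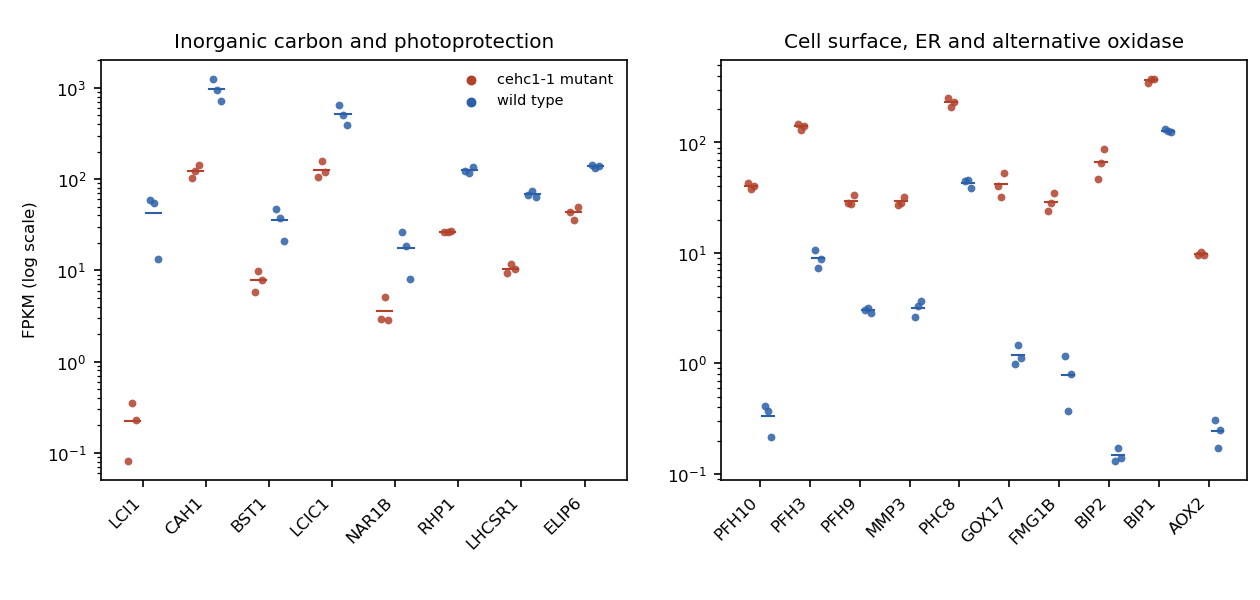
FPKM on a log axis of 8 genes of inorganic carbon and photoprotection (left) and 10 genes of the cell surface, endoplasmic reticulum and alternative oxidase (right) in each library, with cehc1-1 mutant points left of wild-type points and bars at the mean of 3. The genes on the left are lower in each mutant library than in any wild-type library, and those on the right are higher.

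Genes of the cell surface rose in large number. The list of wall proteins, wall-degrading enzymes and prolyl hydroxylases also took in AGG3 and AGG4. Of its 47 tested genes 19 rose and 4 fell, against backgrounds of 4.82% and 4.76%, and the median was 0.72. The count of risen members lay between 19 and 25 under the alternative scalings, and between 19 and 22 as single libraries were left out. Of the 47 genes, 8 passed the minimum level through the mutant alone, so those had to be higher, and 13 of the 19 had a wild-type mean of at least 1 FPKM. Only 2 of the 19 were in the longest-span class.

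Prolyl 4-hydroxylases make the hydroxyproline on which the sugars of wall glycoproteins are carried. PFH10 had 43.1, 38.3 and 40.7 FPKM in the mutant, against 0.410, 0.372 and 0.214 in the wild type (difference 4.97, SE 0.10, adjusted p 2.0e-10). Its neighbour PFH9 had 28.2, 28.0 and 33.3 FPKM in the mutant and 3.07, 3.19 and 2.88 in the wild type (difference 2.92, SE 0.09). PFH3 had 147, 131 and 141 FPKM in the mutant and 10.6, 7.33 and 8.85 in the wild type (difference 3.84, SE 0.20). These were the 3 risen genes among 11 tested PFH genes, whose median was -0.30. The increase was thus large in 3 members and not seen as a call in the others. MMP3, of the gametolysin-like metalloproteases that cut wall proteins, had 27.2, 28.5 and 32.1 FPKM in the mutant and 2.65, 3.28 and 3.65 in the wild type (difference 2.86, SE 0.18).

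Pherophorins, hydroxyproline-rich proteins of the extracellular matrix, rose in 8 of 16 tested genes and fell in 1. PHC8 had 254, 209 and 231 FPKM in the mutant, against 44.4, 45.9 and 38.7 in the wild type (difference 2.40, SE 0.19). PHC66 was the one that fell, with 7.73, 4.79 and 5.62 FPKM in the mutant and 22.1, 27.3 and 21.5 in the wild type (difference -1.82, SE 0.16). VSP1, a serine-proline-rich wall protein, averaged 5.98 ± 1.85 FPKM in the mutant and 0.666 ± 0.0304 in the wild type (difference 2.03). PHC3, the most abundant gene of the group, averaged 656 ± 38.2 FPKM in the mutant and 751 ± 48.1 in the wild type and was not called (adjusted p 0.053). The 3 other decreases were those of AGG3, AGG4 and VLE1, named after their values were seen. AGG3 is known for phototaxis, and VLE1 is the enzyme that frees daughter cells from the mother wall. VLE1 averaged 4.57 ± 1.12 FPKM in the mutant and 15.1 ± 2.11 in the wild type (difference -1.55).

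The GOX genes encode copper-radical oxidases related to glyoxal oxidase, most of them predicted to act outside the cell. Of 18 such genes 8 were tested and 5 of these rose, with none lower. GOX17 had 40.4, 32.1 and 52.9 FPKM in the mutant, against 0.991, 1.47 and 1.12 in the wild type (difference 4.26, SE 0.16, adjusted p 3.1e-08). GOX19, next to GOX17 on chromosome 16, had 10.5, 10.9 and 11.6 FPKM in the mutant and 1.96, 2.11 and 1.91 in the wild type (difference 2.00, SE 0.07). GOX7 had 6.91, 7.00 and 8.48 FPKM in the mutant and 0.340, 0.402 and 0.476 in the wild type, and passed the minimum level through the mutant alone. GOX9 rose by 1.27. Centring by gene span left 3 of the 5 calls.

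In the endoplasmic reticulum 3 chaperone genes rose out of 44 tested genes for folding and quality control, and they lie next to each other on chromosome 2. BIP2, an HSP70-type chaperone of that compartment, had 47.1, 64.7 and 87.8 FPKM in the mutant, against 0.131, 0.172 and 0.139 in the wild type (difference 5.83, SE 0.17, adjusted p 4.0e-09). BIP1, its paralog, had 348, 373 and 375 FPKM in the mutant and 133, 126 and 124 in the wild type (difference 1.51, SE 0.07). HSP90B, the HSP90 of the same compartment, had 326, 347 and 361 FPKM in the mutant and 125, 115 and 115 in the wild type (difference 1.54, SE 0.07). The increase of BIP2 was that of a gene near 0 in the wild type, whereas BIP1 and HSP90B were abundant in both strains. BIP1 and BIP2 are close copies, and no source used here says how shared reads were split between them. The median of the family, -0.07, was close to that of all genes, and CRT2, a calreticulin and its most abundant member, had a difference of 0.34.

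Of 45 genes listed as heat shock proteins and chaperonins 2 rose and 1 fell. HSP70G, a relative of HSP70 also assigned to the endoplasmic reticulum, averaged 63.1 ± 2.76 FPKM in the mutant and 18.8 ± 1.00 in the wild type (difference 1.69). CCT11 rose by 1.07. Both are in the longest-span class, and after centring by span CCT11 was at 0.63 and HSP70G at 1.26. HSP70B, the plastid HSP70, averaged 85.8 ± 6.87 FPKM in the mutant and 176 ± 10.9 in the wild type and fell by 1.03. That call was lost without mutant replicate 1 (-0.97) or without wild-type replicate 1 (-0.98). HSP90A, the abundant cytosolic form, had a difference of -0.38. Of 62 proteasome and ubiquitin genes 2 rose, UBC15 (1.09) and UBQ4 (1.01), and the call of UBQ4 was lost without mutant replicate 1 or 2 or wild-type replicate 1 or 3. After centring by span UBQ4, of the longest-span class, was at 0.57 and UBC15 at 1.06. UBC15 passed the minimum level through the mutant alone, so it had to be higher.

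Among genes of the cilia the FAP genes held calls in both directions, while the other lists held higher calls or none. Of 286 tested FAP genes, for proteins found in isolated flagella, 27 rose and 10 fell, against backgrounds of 4.82% and 4.76%. The share that fell was thus below its background. The median was 0.14, which lay 0.27 above that of all genes. Of the 286 genes, 30 passed the minimum level through the mutant alone, so those had to be higher, and 3 through the wild type alone. The largest increases were of 2 neighbouring genes on chromosome 2. FAP212 had 34.9, 24.2 and 40.2 FPKM in the mutant, against 1.06, 0.711 and 1.57 in the wild type (SE of the difference 0.31). FAP310 had 259, 234 and 301 FPKM in the mutant and 21.1, 19.5 and 20.5 in the wild type (difference 3.63, SE 0.26). FAP113 had 193, 210.5 and 294 FPKM in the mutant and 22.1, 30.5 and 48.1 in the wild type (difference 2.80, SE 0.56, adjusted p 0.0013). All 3 were clear of the wild-type range. FAP269 had the deepest decrease, with 31.7, 25.2 and 32.8 FPKM in the mutant and 113, 91.1 and 110.5 in the wild type (difference -1.78). Of the 27 FAP genes that rose 19 were in the longest-span class and 21 had a wild-type mean of at least 1 FPKM, and centring by span left 18 higher and 4 lower.

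FMG1B, the main glycoprotein of the ciliary membrane, had 24.0, 28.1 and 34.9 FPKM in the mutant, against 1.17, 0.371 and 0.806 in the wild type (difference 4.08, SE 0.45, adjusted p 2.8e-05). It was the only called gene of the 37 tested under intraflagellar transport, the BBSome and the ciliary membrane. It passed the minimum level through the mutant alone, so it had to be higher. It belongs to the longest-span class, and its difference was 3.64 after centring by span. All 12 tested dynein heavy chain genes, the motors of the axoneme and of transport within the cilium, were called higher. DHC14 had 9.16, 9.33 and 10.4 FPKM in the mutant and 2.91, 2.68 and 1.79 in the wild type (difference 1.63, SE 0.22). DHC13, DHC9 and DHC15 rose by 1.51, 1.46 and 1.39. The 12 genes are all in the longest-span class, where 14.1% of genes were called higher, and 6 of them had a wild-type mean of at least 1 FPKM. After centring by span 5 genes of the group were called. No other gene of the 70 for radial spokes and dyneins was called.

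Wild-type library 3 was the lowest of its strain for 66 of these 70 genes (94.3%), for 72.4% of FAP genes and for 83.8% of the transport genes, against 32.2% of all tested genes. Without it the median of the spoke and dynein genes was -0.07 in place of 0.08, and 10 genes were called in place of 12. The FAP genes without it had 22 higher and 11 lower. Tubulin and centrosome genes had no call among 20 tested, and 59 basal body and motility genes had 1, which was higher. KIN10A was the 1 kinesin of 13 that was called, at 1.11, and lost the call without wild-type replicate 3 (0.95). It is in the longest-span class and was at 0.67 after centring by span.

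A few genes of the cell division cycle, most of them below 1 FPKM in the wild type, rose in the mutant. Of 51 tested genes for DNA replication and the cell cycle 6 rose (11.8%) and none fell, against backgrounds of 4.82% and 4.76%. The median was 0.23, above that of all genes under each scaling by 0.19 to 0.37. Of the 51 genes, 7 passed the minimum level through the mutant alone, so those had to be higher, and 1 through the wild type alone. RIR2, the small subunit of ribonucleotide reductase, had 2.76, 7.82 and 1.22 FPKM in the mutant, against 0.0854, 0.0654 and 0.0712 in the wild type (difference 1.97, SE 0.37, adjusted p 8.6e-04). CDKB1, the kinase of entry into mitosis, had 2.07, 4.59 and 0.846 FPKM in the mutant and 0.164, 0.0627 and 0 in the wild type (difference 1.56, SE 0.30). CYCB1, its cyclin partner, had 1.53, 4.28 and 0.994 FPKM in the mutant and 0.0398, 0.0856 and 0 in the wild type (difference 1.52, SE 0.27). In all 3 genes mutant library 2 was the highest and library 3 the lowest, and library 3 still exceeded the wild type. MCM3, a subunit of the replicative helicase, had 3.68, 5.48 and 1.14 FPKM in the mutant and 0.507, 0.432 and 0.395 in the wild type (difference 1.48, SE 0.31).

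This order of the mutant libraries, 2 above 1 above 3, held for 30 of the 51 genes (58.8%) and for 17.4% of all tested genes. Of the 6 called genes 5 had a wild-type mean below 1 FPKM and passed the minimum level through the mutant. Without mutant replicate 2 the count was 2, and without mutant replicate 3 it was 10. RIR2, CDKB1 and CYCB1 lay under the minimum level without mutant replicate 2. MIND1, a plastid division protein, had the same order, with 6.94, 12.1 and 2.82 FPKM in the mutant and 0.255, 0.149 and 0.0729 in the wild type (difference 2.67, SE 0.33). FAP414 shared it at a higher level, with 22.5, 44.9 and 9.44 FPKM in the mutant and 2.15, 2.52 and 0.795 in the wild type (difference 3.05, SE 0.43). Of 127 histone genes 7 were tested and none was called, and 91 were listed at 0 in all 6 libraries. Replication histones of this alga are known to carry mRNAs without a poly(A) tail, and the libraries are of polyA RNA. What part this has in the zeros was not tested.

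**Figure D5:**
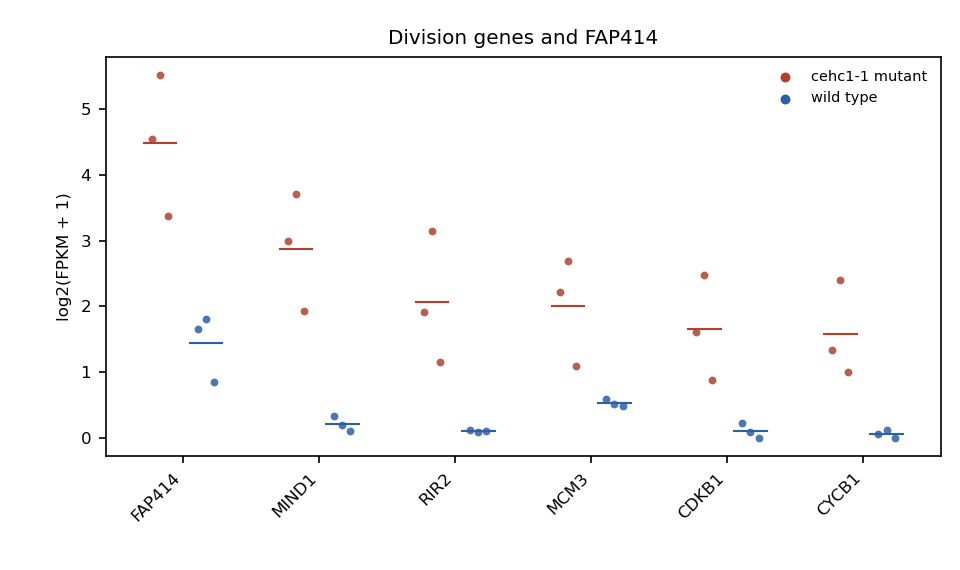
Level as log2(FPKM + 1) of 6 genes in each library, with cehc1-1 mutant points left of wild-type points, in the order of libraries 1, 2 and 3, and bars at the mean of 3. Mutant library 2 is the highest and library 3 the lowest for each of the 6 genes, and every mutant library is above the wild type.

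In the mitochondrion AOX2 was the only respiratory gene of 105 called higher on the deposited scale, against 3 with equal totals. AOX2 passed the minimum level through the mutant alone, so it had to be higher. With a minimum mean of 5 FPKM none of 100 respiratory genes was called higher. This alternative oxidase, which passes electrons from ubiquinol to oxygen past the cytochrome chain, had 9.53, 10.2 and 9.53 FPKM in the mutant, against 0.307, 0.171 and 0.248 in the wild type (difference 3.12, SE 0.09, adjusted p 3.0e-09). Of the other 104 tested genes of respiration 5 fell and none rose. The 5 were 2 without wild-type replicate 3, 1 with median ratios, and none with quantile normalization, equal totals or centring by span. COX191 averaged 275 ± 35.9 FPKM in the mutant and 605 ± 55.2 in the wild type (difference -1.14). QCR8 and QCR6 of the cytochrome bc1 complex fell by 1.08 and 1.04, and ASA10 of the ATP synthase by 1.03, and all 3 were near the limit for a call. QCR6 lost it without wild-type replicate 2 or 3 (-0.99), and ASA10 without wild-type replicate 3 (-0.93). The family's median was -0.67, close to those of abundant genes, and it lay 0.05 below the all-gene median with quantile normalization.

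Acetate and starch metabolism held no called gene on the deposited scale. The 29 genes of acetate use and the glyoxylate cycle had a median of -0.51, which lay 0.39 below that of all genes as deposited and 0.10 above it after quantile normalization. ICL1, isocitrate lyase, averaged 1718 ± 202 FPKM in the mutant and 2678 ± 410.0 in the wild type (difference -0.64, adjusted p 0.0018). The 26 starch genes had a median of 0.18, above that of all genes except after centring by span, where it lay 0.19 below. Starch genes called higher numbered 4 with median ratios, 4 with quantile normalization and 8 with equal totals, 3 without mutant replicate 2 and 4 without wild-type replicate 2. SSS3B, a soluble starch synthase, had 9.36, 8.42 and 8.82 FPKM in the mutant and 3.61, 4.97 and 3.42 in the wild type, while GBSS1A, the granule-bound synthase, averaged 125 ± 7.51 FPKM in the mutant and 220.3 ± 22.7 in the wild type. Their differences, 0.99 and -0.81, were of opposite sign, and neither was a call.

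Of 43 tested genes of fatty acid and lipid synthesis 8 fell and none rose, with a median of -0.50. The count lower was 7 with centring by span, 5 without mutant replicate 2 or wild-type replicate 3, and 2 with median ratios. It was 0 with quantile normalization and with equal totals, and with equal totals 3 were higher and the median was 0.21. BCC2 and BCC1, biotin carrier proteins of acetyl-CoA carboxylase, fell by 1.32 and 1.18. BCC2 had 118, 116 and 133 FPKM in the mutant and 319, 284 and 318 in the wild type. HAD1, a dehydratase of the elongation cycle, fell by 1.12, and SQD1, of sulfolipid synthesis, by 1.11. Of 13 lipid droplet and plastoglobule genes PLAP7, in the longest-span class, rose by 1.32, and was at 0.88 after centring by span. COQ5 was the 1 called gene of 16 in the synthesis of quinones and tocopherol, and fell by 1.31.

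Amino acid synthesis had 5 lower genes among 45, 3 without mutant replicate 1 or wild-type replicate 3, and 1 with quantile normalization or equal totals. METE1, the methionine synthase that works without cobalamin, had 228, 263 and 265 FPKM in the mutant, against 1095, 853 and 1162 in the wild type (difference -2.03, SE 0.13, adjusted p 1.4e-06), and is in the longest-span class, where falls were few (0.792%). MAA7 and TRPA1, the 2 subunits of tryptophan synthase, fell by 1.21 and 1.13, and LEU1S of leucine synthesis by 1.07, a call lost without mutant replicate 1 or wild-type replicate 3 (-0.95). In nitrogen assimilation 17 of 33 genes were tested. GLT1, a glutamate synthase, had 24.4, 32.1 and 21.3 FPKM in the mutant and 7.58, 13.5 and 10.8 in the wild type (difference 1.22, SE 0.24), and GDH1, a glutamate dehydrogenase, rose by 1.18. GLN3, a glutamine synthetase gene, averaged 0.482 ± 0.107 FPKM in the mutant and 2.53 ± 0.164 in the wild type (difference -1.25), whereas the abundant GLN2 had a difference of -0.49. Among 49 genes of sulfur and phosphorus acquisition ARS18, an arylsulfatase, rose by 1.40 and PHO1 fell by 1.44. After centring by span GLT1 and ARS18, of the longest-span class, were at 0.79 and 0.96, and GLN3 was at -0.97. GDH1 and PHO1 were at 1.35 and -1.48. ARS18 passed the minimum level through the mutant alone, so it had to be higher.

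Thioredoxins and antioxidant enzymes had 7 lower and 1 higher gene among 60. PRX6, a peroxiredoxin, had 52.1, 43.6 and 60.4 FPKM in the mutant, against 253, 202 and 231 in the wild type (difference -2.12, SE 0.13, adjusted p 1.4e-06). GPX3, a glutathione peroxidase type enzyme, had 4.96, 5.88 and 4.51 FPKM in the mutant and 17.1, 17.5 and 17.3 in the wild type (difference -1.59, SE 0.12). MSRB4, a methionine sulfoxide reductase, fell by 1.08. NTR2, a thioredoxin reductase, was the 1 risen member, with 38.8, 38.6 and 41.1 FPKM in the mutant and 15.4, 15.3 and 16.2 in the wild type (difference 1.28, SE 0.08). Median ratios and quantile normalization each left 2 lower, and with equal totals 1 member was called lower and 2 higher.

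Of 11 tested zinc genes 2 rose. ZCP1, of a GTPase family known from zinc deficiency, had 7.79, 8.90 and 8.94 FPKM in the mutant, against 0.211, 0.185 and 0.268 in the wild type (difference 2.96, SE 0.12, adjusted p 6.5e-08). ZRT2, a zinc transporter, had 6.94, 11.8 and 9.11 FPKM in the mutant and 3.73, 4.05 and 2.24 in the wild type (difference 1.24, SE 0.20). ZIP6, the most abundant of the group, had a difference of -0.97. ZCP1 passed the minimum level through the mutant alone, so it had to be higher. Outside these families RSEP1 had 11.5, 10.1 and 12.4 FPKM in the mutant and was at 0.0138 FPKM in 1 wild-type library and listed at 0 in the other 2. Among truncated hemoglobins THB7 rose, by 1.01, a call lost without mutant replicate 1 or 3 or wild-type replicate 2.

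Signalling and regulatory genes had few calls. HKR1, a histidine kinase rhodopsin, averaged 18.1 ± 0.725 FPKM in the mutant and 6.68 ± 1.27 in the wild type (difference 1.33). TOR1, the TOR kinase, had 4.88, 4.88 and 5.23 FPKM in the mutant and 1.35, 1.65 and 1.36 in the wild type (difference 1.29, SE 0.14). ROC66, a gene of the circadian clock, had 3.95, 3.92 and 4.22 FPKM in the mutant and 0.817, 0.982 and 0.853 in the wild type (difference 1.42, SE 0.11), and was the 1 called gene of 24 transcription factors. All 3 are in the longest-span class, and after centring by span ROC66 was at 0.98, HKR1 at 0.89 and TOR1 at 0.85. ROC66 passed the minimum level through the mutant alone, so it had to be higher. Of 33 transporters and ion channels 3 rose, PMA3 (1.35), KUP2 (1.19) and TRP22 (1.17). PMA3, a proton pump of the plasma membrane, had 61.2, 60.9 and 66.0 FPKM in the mutant and 22.6, 25.2 and 24.2 in the wild type. KUP2 lost its call without wild-type replicate 3 (0.86). After centring by span KUP2 and TRP22, of the longest-span class, were at 0.75 and 0.73, and PMA3 was at 1.31.

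Several further families held few calls. Of 108 genes of vesicle traffic and autophagy SEC20 alone rose, by 1.25. Of 95 genes of the nuclear pore, splicing and RNA polymerases PRP8 rose, by 1.16, and SRS9 fell, by 1.17. Of 46 translation factors EIF5B1 rose, by 1.39, and EIF4E fell, by 1.03, a call lost without wild-type replicate 3 (-0.96). None of 37 tRNA synthetases was called, and 77 organelle RNA factors held PPR3 (1.03) and PPR9 (-1.14) as calls, of which PPR3 was lost without mutant replicate 2 or 3 or wild-type replicate 1 (0.95 at the lowest). Cyclophilins and FKBP isomerases had 6 lower genes and none higher among 51, led by FKB20 (-1.30) and CYN19C (-1.25). That is 11.8% of the family on the deposited scale, while quantile normalization left none lower and equal totals gave none lower and 3 higher. Among cytochromes P450 CYP771A1 and CYP745A1 rose, by 1.34 and 1.09, and CYP744C1 fell, by 1.23. The 2 cyclase genes tested were not called. SEC20, PRP8, EIF5B1, PPR3 and CYP771A1 are in the longest-span class. After centring by span they were at 0.81, 0.72, 0.95, 0.59 and 0.90, under the limit for a call. SRS9, EIF4E, PPR9 and FKB20, of the shortest-span class, were at -0.72, -0.59, -0.69 and -0.86. CYP745A1, CYP744C1 and CYN19C were at 1.26, -1.27 and -1.29.

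Genes without a symbol made up 7845 of the tested genes, and 671 of them were called, 386 higher and 285 lower. The 3552 genes with a symbol had 163 higher and 258 lower, 11.9% in all. Cre08.g372200_4532 had 882, 903 and 1036 FPKM in the mutant, against 0.734, 0.461 and 0.377 in the wild type, and Cre01.g029700_4532 averaged 201 ± 26.9 FPKM in the mutant and 0.629 ± 0.113 in the wild type. The deepest decreases of this kind were those of Cre01.g011630_4532, which averaged 3.56 ± 0.550 FPKM in the mutant and 99.6 ± 8.28 in the wild type, and of Cre08.g375450_4532, with 0.615, 0.934 and 0.779 FPKM in the mutant and 26.5, 23.7 and 26.3 in the wild type.

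Called genes lay beside called genes of the same direction more often than tested genes in general. The order of genes came from the reference table of assembly version 5.5. Of 430 genes called higher with a tested neighbour 12.6% had a neighbour called higher, as against 6.52% of 9478 tested genes, and of 470 genes called lower 14.7% had a neighbour called lower, as against 7.47%. No test was made of these shares, and whether neighbours are alike in span or level was not examined. Besides the trio of BIP2, HSP90B and BIP1, the named runs of 3 called genes were PHC36, PHC5 and PHC35, all higher, on chromosome 5, and FAP191, AGG6 and AGG3, all lower, on chromosome 10. The calls were spread over the 17 chromosomes, with 7.53% to 12.1% of tested genes called on each.

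The labels call the samples algal cells, and 11 of 12 genes listed as markers of vegetative cells averaged at least 1 FPKM in both strains. The exception was VSP1, described above, which rose by 2.03. No known sample of another cell state was compared, so these levels do not tell vegetative cells from others. The summed FPKM of the 12 genes was 49445 to 55345 in the mutant libraries and 91967 to 110023 in the wild-type libraries. Their shares of all FPKM lay closer, at 8.35%, 8.34% and 8.58% in the mutant libraries and 10.2%, 9.48% and 9.93% in the wild-type libraries. Of the 12 genes 3, LHCBM1, PSAD1 and PSBO1, are photosynthesis genes that fell. Of 29 markers of gametes and zygotes 13 were tested, 1 rose and 2 fell, and their summed FPKM was 288 to 379 in the mutant and 545 to 706 in the wild type. As shares of all FPKM the gamete and zygote sums overlapped, at 0.0492%, 0.064% and 0.0447% in the mutant libraries and 0.0516%, 0.0702% and 0.0637% in the wild-type libraries. MTD1 and EZY1C were listed at 0 in all 6 libraries. NSG1, known from gametogenesis under nitrogen starvation, had 32.4, 79.4 and 26.9 FPKM in the mutant, against 199.5, 329 and 350.2 in the wild type (difference -2.76, SE 0.36, adjusted p 8.2e-05). GAS31, a hydroxyproline-rich protein known from gametes, rose by 1.15, and EZY5 fell by 1.03, a call lost without mutant replicate 3 (-0.99). PSBO1 lost its call without mutant replicate 2 (-0.99) or wild-type replicate 3 (-0.98). Whether the strains differed in cell state was not tested. In bulk RNA, fewer cells in a state and less RNA per cell cannot be told apart.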

How the data were processed

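PolyA RNA gave paired-end reads of 125 bp, per the labels' protocols. The submitters' processing notes name STAR 2.7.10b and Cuffdiff 2.0.2, with no role or order, and no source used here gives the genome build. The authors deposited FPKM per library and 1 FPKM value per strain. The strain values lay within 1% of the replicate means for 97.6% of tested genes in the mutant and 95.7% in the wild type, and results are from the values per replicate. The number of reads is unknown, so no counting interval was made.

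Values were transformed to log2(FPKM + 1), and genes averaging 1 FPKM or more across the 6 libraries were kept. With limma 3.58.1 (R 4.3.3) and trended moderation, group means were fitted to all 9 libraries, the 3 of the rescued strain serving for a common estimate of spread. Benjamini-Hochberg adjustment ran over 11397 genes. On simulated data with 200 genes of 11397 changed by a log2 of 2, the procedure recovered 97% of them and called 2 unchanged genes. All other genes were left unchanged there. How the procedure performs where differences follow level, gene span or library total was not tested.

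Gene families were 57 lists matched to symbols in the deposited table. The 52 lists other than the copper, hydrogen, iron and cell marker lists hold 2288 of the 3552 tested genes with a symbol. Lists, members and tests were chosen with earlier results of these data known, and symbol spellings were matched once the table was seen, so no list has a test. Named genes were CEHC1, the 15 largest increases and 15 largest decreases among called, non-overlapping genes with a symbol outside the copper, hydrogen and iron lists, up to 4 called members (or, with none, the largest difference) and the most abundant member of each list, the largest called member of each symbol stem with at least 8 tested genes, and at most 2 identifiers per direction without a symbol. Genes named outside the rule are marked, or appear as neighbours in a run.

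Replicate numbers did not pair the cultures by the criterion used. Gene span and order came from the RefSeq gene table of assembly Chlamydomonas_reinhardtii_v5.5, matched by locus tag for 94.1% of tested genes. As its build differs from the annotation version 6.1 in the identifiers, no coordinates are given. Plots used matplotlib 3.10.9 (Python 3.11.15). The alternatives tried comprised pseudocounts of 0.1 and 5, a minimum of 5 FPKM or none, median ratios, quantile normalization, other moderation, the 2 groups alone, a replicate block, no minimum difference, and leaving out single libraries. Equal totals, median ratios over all genes and centring by gene span were added after the data were seen. Promoter sequences were not used here.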

Additional observations from a re-analysis of the deposited data

How the results depend on the processing

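The 1092 calls, 549 higher and 543 lower, moved with several choices, most with the minimum difference. A pseudocount of 0.1 gave 1815 calls with 1147 higher, and one of 5 gave 433 with 114 higher and 319 lower. A minimum mean of 5 FPKM left 646, with 184 higher. Rescaling to equal totals gave 2109, with 2034 higher and 75 lower, and centring within classes of gene span 618, with 349 higher and 269 lower. Median ratios gave 1039, with 696 higher and 343 lower, and quantile normalization 738, with 504 higher and 234 lower. With no minimum difference 7585 genes were counted, 2997 higher and 4588 lower. The cause of these shifts was not tested. No minimum FPKM, other moderation, the 2 groups alone and median ratios over all genes kept the 3 counts within 1.5 times. Leaving out single libraries gave 1017 to 1245 calls, 517 to 641 higher and 500 to 604 lower.

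Same-numbered cultures of the 2 strains deviated together only weakly, with correlations of 0.07, 0.08 and 0.05. With the replicate block the counts were again 1092, 549 and 543 and all 1092 calls were shared. Other settings shared fewer of the 1092 calls. These were 892 with median ratios, 624 with equal totals, 608 with quantile normalization, 457 with centring by span and 432 with a pseudocount of 5. Of the 171 called named genes 2 lost their sign, both with quantile normalization, LHCBM1 at 0.00 and PSBR1 at 0.03. Of the 51 named genes not called, 19 changed sign with quantile normalization, 23 with equal totals, 5 with centring by span and 1 with median ratios, and none under the other settings. Equal totals took the call from 81 named genes, centring by span from 75 and quantile normalization from 70. Of the same 171 genes 19 lost the call without at least 1 library. FPKM with no read counts limit what can be said of genes near 1 FPKM.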
